A study of Mus musculus with 8 samples.

Results

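The AP-1 and immediate early factors were followed as 10 genes: Fos, Fosb, Fosl2, Jun, Junb, Jund, Egr1, Egr2, Atf3 and Ier2. They were taken by name, and every array probe set that the platform annotation gives to exactly 1 of them was read, which made 14 of 34945 probe sets with a single gene and 10 of 18193 genes. Expression was measured on arrays in multipotent progenitors of female C57BL6 mice aged 8 to 10 weeks, sorted out of bone marrow. There were 4 samples of wild type (WT) mice and 4 of FLT3-ITD mice, whose FLT3 receptor carries a tandem duplication as found in leukaemia. The labels state neither the promoter that drives the altered receptor nor whether the mice carry 1 altered copy or both. Both genotypes were sorted by the same gate, Lin−, Sca-1+, cKit+, CD48+ and CD150−. Both genotypes have samples numbered 1, 2 and 3 and also a sample 1 tagged 037, which is called replicate 037 here. The labels leave the tag unexplained, so replicate 037 may repeat replicate 1, which was not tested. Over all probe sets, FLT3-ITD replicates 1 and 037 correlated at 0.953, the lowest correlation of replicate 037 with any array. FLT3-ITD replicate 1 was low with every other array, at 0.948 to 0.960. WT replicates 1 and 037 correlated at 0.969, below the highest correlation of each, 0.973. The labels also do not tie samples to separate mice. All p-values therefore rest on a spread between samples that may be technical.

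AP-1 is a family of transcription factors that work as pairs: FOS proteins need a JUN partner, JUN proteins can also pair with each other, and ATF3 pairs with JUN proteins or with itself. The genes are called immediate early because growth factors, cytokines and stress switch them on within minutes and without new protein synthesis, largely through MAP kinases acting on factors already bound at their promoters. Receptor tyrosine kinases such as FLT3 feed this route, and handling of cells, for example tissue dissociation and sorting, is also known to induce the same genes.

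The array medians lay between 5.98 and 6.05 on the log2 scale. The array least like the rest was FLT3-ITD replicate 1, whose correlations with the others were 0.948 to 0.960. Of the gate's genes, Kit read 9.61 in WT and 9.14 in FLT3-ITD and Cd48 9.92 and 10.98, means of 4 arrays above the array median in each. Cd48 differed by genotype past the test used here (1.06 ± 0.13, SE; limma adjusted p = 0.00740), so a gene of the gate itself was higher in FLT3-ITD, and its part in the members' levels was not tested. Slamf1, which encodes CD150, averaged 4.73 and 4.51, below the array median. In FLT3-ITD replicate 037 the 3′ control probe set of Gapdh exceeded the 5′ one by 2.99, against 1.82 to 2.29 on the other 7 arrays, and that of beta-actin by 0.17, against −0.48 to −0.32. This difference can be a sign of RNA quality, which was not read directly here.

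Levels were compared by genotype and by the tag, in both cases with limma, a linear model with moderated variances. A gene passed at an adjusted p under 0.05 (Benjamini-Hochberg) over 10762 tested genes, those whose level exceeded the array's median on 4 arrays or more. Where a gene had several probe sets, the one with the highest mean stood for it. All members except Egr2 passed that filter, on all 8 arrays, so 9 were tested. None of the 9 differed by genotype past the threshold, against 0.604% of all tested genes (0.427% higher and 0.177% lower in FLT3-ITD), and none by the tag, against 0% of all tested genes. At an unadjusted p under 0.05 there were 0 members by genotype, against 9.58% of all tested genes, and 5 by the tag, all lower in the tagged samples, against 3.68% of all tested genes in that direction. In these bulk samples, fewer cells of a type and less RNA per cell cannot be told apart.

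**Figure D1:**
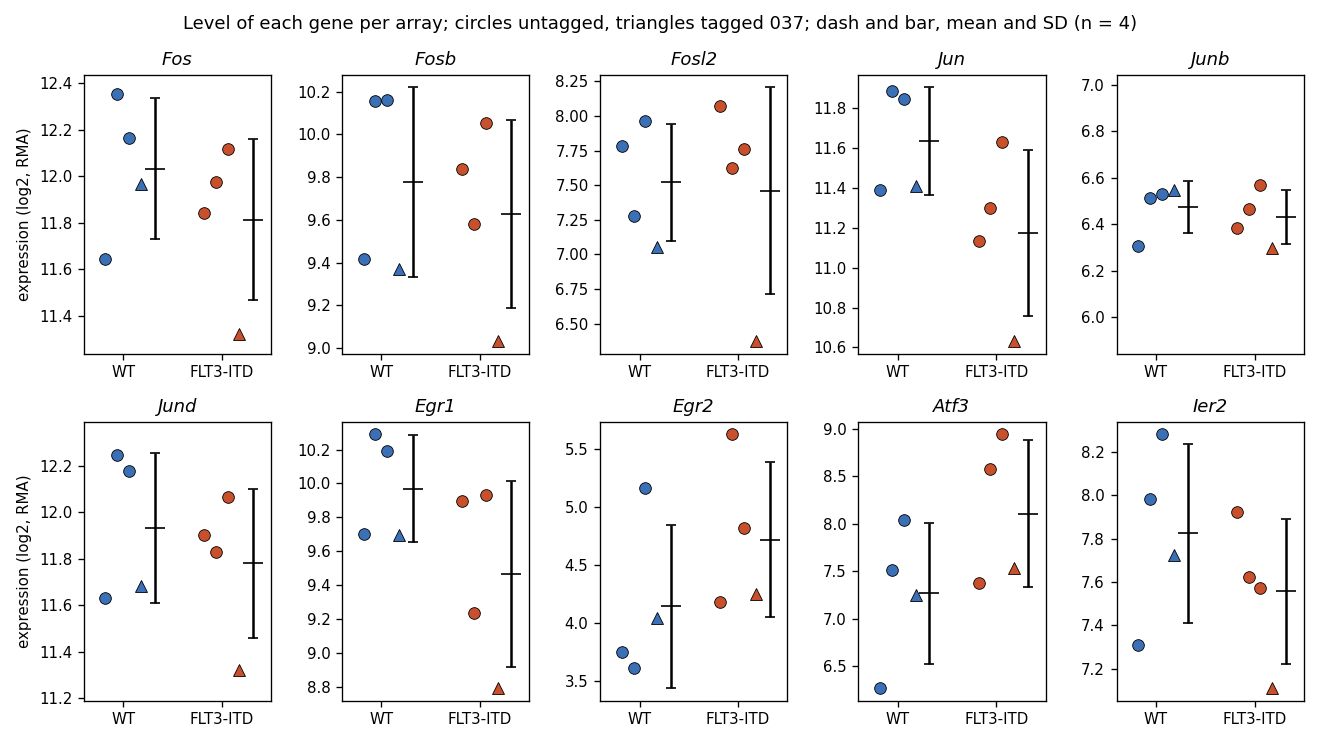
Expression of the 10 genes on each array (log2, y axis; each panel has its own range) by genotype (x axis), with circles for untagged samples, triangles for samples tagged 037, and dashes and bars for mean and SD (n = 4). The genotypes overlap in every panel, and the FLT3-ITD triangle is the lowest of the 8 points for Fos, Fosb, Fosl2, Jun, Junb, Jund, Egr1 and Ier2.

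Promoter sequences are shown for Fos, Fosb and Jun, whose lowest array was FLT3-ITD replicate 037, and for Atf3, whose lowest array was another. They are RefSeq windows of 300 bases on GRCm38.p6, from 250 bases before the start of transcription to 50 after it. Of the 10 members, 8 had at least 1 window. Egr1 and Ier2 had none, so their promoters were not read, and sites outside the windows were not searched in any member. The Fos window lies at chr12:85473640-85473939 on the + strand, Fosb at chr7:19309996-19310295, Jun at chr4:95052173-95052472 and Atf3 at chr1:191183284-191183583, these 3 on the − strand. Capitals mark matches, searched on both strands, to TGACG (the core of a cAMP response site), TGACNTCA (a site for pairs of JUN and ATF proteins), TATAAA (where the basal machinery assembles) or GCGNGGGCG (an EGR site).
Fos: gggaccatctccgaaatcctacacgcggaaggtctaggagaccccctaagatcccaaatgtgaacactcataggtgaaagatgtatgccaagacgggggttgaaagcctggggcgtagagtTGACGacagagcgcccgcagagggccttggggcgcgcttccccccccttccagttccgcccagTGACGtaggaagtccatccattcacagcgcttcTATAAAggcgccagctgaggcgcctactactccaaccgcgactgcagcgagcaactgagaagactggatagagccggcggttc
Fosb: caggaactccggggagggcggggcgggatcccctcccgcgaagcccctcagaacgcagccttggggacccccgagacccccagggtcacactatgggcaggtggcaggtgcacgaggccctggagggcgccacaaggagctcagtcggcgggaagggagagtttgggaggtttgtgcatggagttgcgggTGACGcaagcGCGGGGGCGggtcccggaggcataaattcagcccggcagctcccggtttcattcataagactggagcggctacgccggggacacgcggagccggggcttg
Jun: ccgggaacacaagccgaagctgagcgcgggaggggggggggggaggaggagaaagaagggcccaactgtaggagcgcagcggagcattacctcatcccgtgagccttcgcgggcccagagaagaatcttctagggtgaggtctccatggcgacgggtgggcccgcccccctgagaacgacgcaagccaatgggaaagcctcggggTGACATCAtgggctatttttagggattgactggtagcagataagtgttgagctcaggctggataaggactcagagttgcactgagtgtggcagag
Atf3: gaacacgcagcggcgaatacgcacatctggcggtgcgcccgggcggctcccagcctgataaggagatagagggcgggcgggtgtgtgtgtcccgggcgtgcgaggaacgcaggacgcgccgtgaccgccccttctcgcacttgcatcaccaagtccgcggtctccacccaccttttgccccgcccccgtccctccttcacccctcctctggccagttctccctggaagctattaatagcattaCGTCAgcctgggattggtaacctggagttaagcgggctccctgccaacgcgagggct
TGACG was present in the windows of 5 members, Fos, Fosb, Junb, Atf3 and Egr2, of 8 with a window, and in 20.8% of 32851 windows of the same length over all genes. In Fos its matches began 129 and 66 bases before the start, in Fosb 60 and in Atf3 7. TGACNTCA was found in Jun alone among the members, 45 bases before the start, and in 8.83% of all windows. It can overlap TGACG where N is G, which is not so in Jun. TATAAA was found in Fos, 33 bases before the start, and at the start of Junb, with 13.6% over all windows. GCGNGGGCG was found in Fosb and Fosl2, with 5.55% over all windows. The AP-1 site itself, TGA and TCA with any 1 base between them, matched in 0 of the 8 members' windows and in 7.81% of all windows. A CArG box, the site of serum response factor, matched among the members in Egr2, in 4 of its 5 windows, and in 1.63% of all windows. Windows of 1 gene can overlap, so some of the 4 may hold the same site. These are matches of letters and say nothing on binding in these cells. Members were counted by gene, with a match in any window, while the percentages count single windows. Egr2, with 5 windows, therefore had more room for a match.

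The FOS subunits cannot pair with themselves and depend on a JUN partner. Fos, the founding member, read 11.64, 12.35, 12.17 and 11.96 in WT replicates 1, 2, 3 and 037 (log2). It read 11.84, 11.97, 12.12 and 11.32 in the same FLT3-ITD replicates, so the genotypes overlapped and replicate 037 of FLT3-ITD was the lowest of all. FLT3-ITD minus WT was −0.22 ± 0.21 (SE; limma adjusted p = 0.809), with an unadjusted 95% interval of −0.70 to 0.27. Fosb, a close relative of Fos, read 9.42, 10.16, 10.16 and 9.37 in WT and 9.84, 9.58, 10.05 and 9.03 in FLT3-ITD, in the same order. In WT, replicates 1 and 037 lay below the other 2. FLT3-ITD replicates 1, 2 and 3 lay inside the WT range and replicate 037 below it, the lowest of the 8 arrays. The difference was −0.15 ± 0.27 (SE; limma adjusted p = 0.910; interval −0.77 to 0.47).

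Fosl2 encodes FRA-2, a FOS protein without the strong activation region of FOS. On the probe set of higher mean, 1437247_at, it read 7.78, 7.28, 7.97 and 7.06 in WT and 8.07, 7.62, 7.76 and 6.37 in FLT3-ITD. The tagged sample was the lowest within each genotype, and the difference by genotype was −0.06 ± 0.37 (SE; limma adjusted p = 0.974; interval −0.89 to 0.77). The genotype value turned to 0.15 ± 0.23 in the 3 against 3 untagged samples. Its other probe set, 1422931_at, lay above the array median on 1 array, with 5.52 to 5.96 in WT and 5.26 to 6.10 in FLT3-ITD. It was too dim to be tested, and its lowest array was FLT3-ITD replicate 3.

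The JUN subunits supply the partner that every FOS protein needs. Jun read 11.39, 11.88, 11.85 and 11.41 in WT and 11.13, 11.30, 11.63 and 10.63 in FLT3-ITD. The FLT3-ITD samples other than replicate 3 lay below every WT sample, and replicate 3 lay inside the WT range. The difference was −0.46 ± 0.23 (SE; limma adjusted p = 0.582), with an interval of −0.97 to 0.06. The second Jun probe set, 1448694_at, read 10.06, 10.85, 10.84 and 10.17 in WT and 8.81, 10.07, 10.39 and 9.94 in FLT3-ITD. On it the lowest array was FLT3-ITD replicate 1, not 037, and the difference was −0.68 ± 0.35 (SE; limma adjusted p = 0.616 over 19208 tested probe sets). Both Jun probe sets therefore read lower in FLT3-ITD and neither passed, with the low value of FLT3-ITD on a different array in each.

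Jund, the JUN family member that is expressed most steadily in resting cells, read 11.63, 12.25, 12.17 and 11.68 in WT and 11.90, 11.83, 12.06 and 11.32 in FLT3-ITD. Its difference was −0.15 ± 0.21 (SE; limma adjusted p = 0.866; interval −0.63 to 0.33). WT replicates 1 and 037 again sat below replicates 2 and 3. The second Jund probe set, 1440265_at, lay close to the array median at 5.67 to 6.41 in WT and 5.99 to 6.47 in FLT3-ITD, with a difference of 0.18 ± 0.19 and WT replicate 3 as its lowest array. Junb, a JUN protein that often restrains JUN, varied least. It read 6.31, 6.51, 6.53 and 6.55 in WT and 6.39, 6.47, 6.57 and 6.30 in FLT3-ITD, all of them just above the array medians, and its lowest array, FLT3-ITD replicate 037, was almost level with WT replicate 1. Its difference was −0.04 ± 0.12 (SE; limma adjusted p = 0.946; interval −0.32 to 0.23).

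Atf3, a stress-induced ATF family member that forms repressive or activating pairs, was the tested member with a positive difference. It read 6.27, 7.51, 8.04 and 7.25 in WT and 7.37, 8.58, 8.94 and 7.53 in FLT3-ITD. FLT3-ITD replicates 2 and 3 lay above every WT sample, replicates 1 and 037 inside the WT range. The difference was 0.84 ± 0.45 (SE; limma adjusted p = 0.614), with an interval of −0.18 to 1.86, the widest among the 9 members. Its lowest array was WT replicate 1, unlike that of any other tested member.

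The EGR proteins are zinc finger transcription factors induced by the same signals but binding GC-rich sites. Egr1 read 9.70, 10.29, 10.19 and 9.69 in WT and 9.90, 9.23, 9.93 and 8.79 in FLT3-ITD. Replicates 2 and 037 of FLT3-ITD lay below every WT sample and the other 2 inside the WT range. The difference was −0.50 ± 0.28 (SE; limma adjusted p = 0.626), with an interval of −1.14 to 0.13. Egr2, known for roles in myeloid and lymphoid cells, lay below the array median on all 8 arrays with both probe sets. On 1427683_at it read 3.75, 3.61, 5.16 and 4.04 in WT and 4.18, 5.63, 4.82 and 4.25 in FLT3-ITD. Without the filter its difference was 0.58 ± 0.41 (SE; limma adjusted p = 0.772). WT replicate 3 and FLT3-ITD replicate 2 were the highest arrays of their genotypes on both Egr2 probe sets.

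Ier2, an immediate early gene for a nuclear protein outside the AP-1 family, read 7.31, 7.98, 8.28 and 7.72 in WT and 7.92, 7.62, 7.57 and 7.11 in FLT3-ITD. WT covered nearly the whole range, and the difference was −0.27 ± 0.24 (SE; limma adjusted p = 0.788; interval −0.81 to 0.28).

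By genotype, 8 of the 9 tested members had a negative difference, against 46.3% of all tested genes, with a median of −0.15 against 0.02 over all tested genes. Without FLT3-ITD replicate 037, 6 of the 9 were negative and the members' median was −0.0012, and without both tagged samples 6 were negative with a median of −0.086. The median was −0.073 without WT replicate 3, with 7 negative, and −0.27 without WT replicate 1, also with 7. It was −0.24 without WT replicate 037 and −0.27 without FLT3-ITD replicate 3, with 8 negative in each. In 0 of the 9 did the genotypes separate without overlap, against 6.22% of all tested genes. The members vary together from array to array and are not independent, so these counts are a description.

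**Figure D2:**
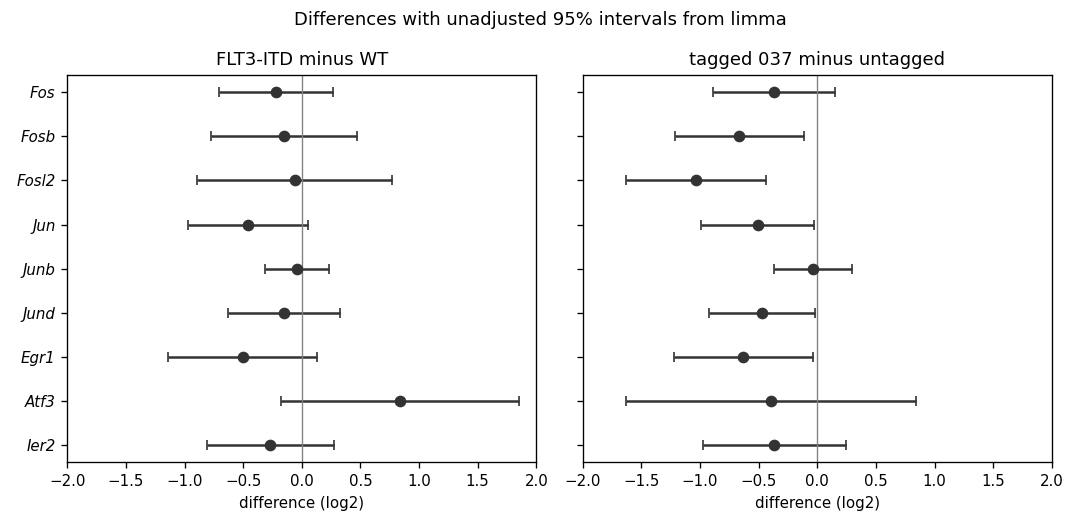
Differences of the 9 tested genes (x axis, log2) between FLT3-ITD and WT (left) and between the samples tagged 037 and the untagged samples within genotype (right), with unadjusted 95% intervals from limma. On the left every interval holds 0, and on the right those of Fosb, Fosl2, Jun, Jund and Egr1 lie below 0, although none passed after adjustment over all tested genes.

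By the tag, all 9 tested members had a negative difference between tagged and untagged samples, with genotype in the model, against 44.1% of all tested genes, and the median was −0.47 against 0.04 over all tested genes. Without FLT3-ITD replicate 037 the members' median was −0.30, with 8 of 9 negative, and without WT replicate 037 it was −0.72, with 9 of 9. Fosl2 differed by −1.03 ± 0.26 (SE; limma adjusted p = 0.439), with an interval of −1.63 to −0.44. That value came from its probe set of higher mean: it was −0.58 as a mean over both probe sets, and −0.62 without FLT3-ITD replicate 037. Fosb differed by −0.67 ± 0.24 (SE; limma adjusted p = 0.520; interval −1.22 to −0.12) and Egr1 by −0.63 ± 0.26 (SE; limma adjusted p = 0.570). Jun differed by −0.51 ± 0.21, Jund by −0.47 ± 0.19, Atf3 by −0.40 ± 0.53, Fos by −0.37 ± 0.22 and Ier2 by −0.37 ± 0.26 (SE; limma adjusted p from 0.571 to 0.895). Junb differed by −0.04 ± 0.14. The second probe sets of Jun and Jund differed less, by −0.12 ± 0.42 and −0.05 ± 0.23.

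The number of members at an unadjusted p under 0.05 rested on single arrays. It went from 5 to 0 without FLT3-ITD replicate 037, to 7 without WT replicate 1, to 2 without WT replicate 2, WT replicate 3 or FLT3-ITD replicate 3, and to 3 without WT replicate 037, FLT3-ITD replicate 1 or FLT3-ITD replicate 2. Within WT the tagged sample differed from the mean of the other 3 by −0.62 in Fosl2, −0.54 in Fosb, −0.37 in Egr1, −0.09 in Fos and 0.10 in Junb. Within FLT3-ITD the same values were −1.45, −0.79, −0.89, −0.66 and −0.18. In 8 of the 9 members, Atf3 being the exception, FLT3-ITD replicate 037 was the lowest of the 8 arrays, as in 10.8% of all tested genes. In the same 8 it was the lowest within FLT3-ITD, against 22.8% of all tested genes. The tagged sample was the lowest within both genotypes in 3 members, Fosb, Fosl2 and Egr1, against 6.81% of all tested genes. FLT3-ITD replicate 037 also had the largest 3′ to 5′ differences of Gapdh and beta-actin, whose part in the result was not tested. This coincidence rests on 1 array. WT replicates 1 and 037 had the next lowest averages over the members. Their Gapdh differences were 2.00 and 1.82 and their beta-actin differences −0.47 and −0.32. FLT3-ITD replicate 1 had the second highest Gapdh difference, 2.29, but the lowest beta-actin difference, −0.48, and an average deviation of 0.05. The 2 controls thus ranked this array differently.

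**Figure D3:**
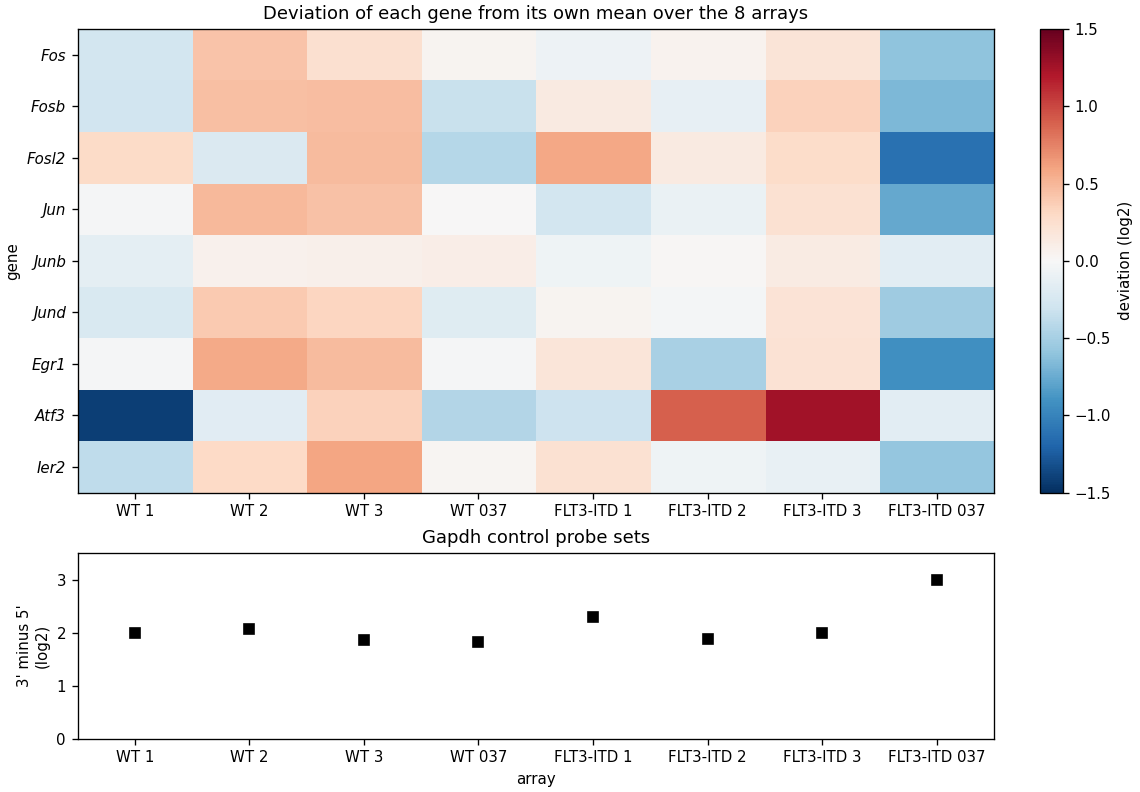
Deviation of each of the 9 tested genes (rows) from its own mean over the 8 arrays (columns), as colour from blue (low) to red (high) on the log2 scale, above the difference between the 3′ and 5′ Gapdh control probe sets on the same arrays (squares, log2). The column of FLT3-ITD replicate 037 is blue throughout and holds the highest Gapdh difference, 2.99, while WT replicates 2 and 3 are mostly red.

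Averaged over the 9 members, the deviation from each gene's mean was −0.61 in FLT3-ITD replicate 037, with all 9 below their mean. It was −0.27 in WT replicate 1 and −0.14 in WT replicate 037, and 0.26 and 0.38 in WT replicates 2 and 3. In FLT3-ITD replicates 1, 2 and 3 it was 0.05, 0.03 and 0.30. The WT samples numbered 1, with and without the tag, thus lay on the low side together: in 7 of the 9 members, Fosl2 and Junb being the exceptions, both lay below both other WT samples, against 17.4% of all tested genes. FLT3-ITD replicate 1 did not share this, with 4 of 9 members below their mean.

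The difference between genotypes was set side by side with and without the tag. FLT3-ITD minus WT was −0.08 for Fos in the untagged samples (3 against 3) and −0.64 in the tagged pair (1 against 1). It was −0.35 and −0.78 for Jun, −0.37 and −0.90 for Egr1, 0.15 and −0.68 for Fosl2, and 1.02 and 0.28 for Atf3. The tagged value lay below the untagged one in all 9 members, on the probe set that stood for each. The share of all tested genes with this direction was not counted. On the second Jun probe set, 1448694_at, the direction was the opposite, with −0.83 untagged and −0.23 tagged. On the second Jund probe set, 1440265_at, it was the same, with 0.23 and 0.03. The interaction of genotype and tag passed in 0 of 9 members and in 0% of all tested genes (limma adjusted p from 0.872 to 0.969 for the members), and 0 members reached an unadjusted p under 0.05, against 6.04% of all tested genes. Its median was −0.46 against 0.01 over all tested genes. The tagged arm holds 1 sample a genotype, whose spread is assumed to be that of the others. The tagged FLT3-ITD sample is also the one with the highest Gapdh difference. Genotype, tag and any difference in RNA quality therefore cannot be told apart in it.

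**Figure D4:**
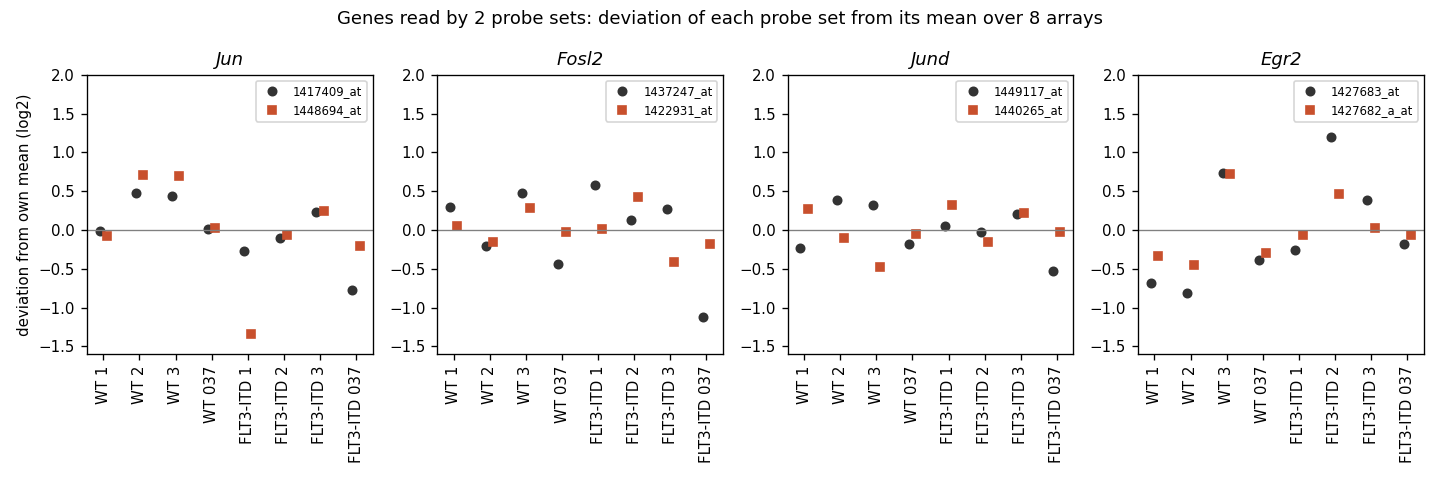
Deviation of each probe set (log2, y axis) from its own mean over the 8 arrays (x axis) for the 4 genes read by 2 probe sets, with circles for the probe set of higher mean and squares for the other. In Jun the lowest point is FLT3-ITD replicate 037 for the circles and FLT3-ITD replicate 1 for the squares, and in Fosl2 and Jund the squares do not follow the low circle of FLT3-ITD replicate 037.

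Likeness to Fos was measured as the root mean square distance between profiles over the 8 arrays, each centred on its own mean, on which a gene with no variation would lie at 0.303. Jund lay at 0.103, the second closest of 10761 other tested genes, and Jun at 0.159, the closest of those genes but for 17. Fosb lay at 0.192, Ier2 at 0.212, Junb at 0.221 and Egr1 at 0.275. Fosl2 at 0.466 and Atf3 at 0.706 lay farther than a flat gene would. Outside the members, the 5 closest genes were Setd1b, which encodes a histone methyltransferase, at 0.0994, Pcmtd1 at 0.109, the transcription factor gene Mef2c at 0.110, Dusp1 at 0.119 and Gfpt1, an enzyme of hexosamine synthesis, at 0.121. Dusp1, an immediate early phosphatase of MAP kinases that is also on the list of other immediate early genes, read 11.46, 12.09, 12.22 and 11.64 in WT and 11.75, 11.83, 12.11 and 11.24 in FLT3-ITD. Like Fos, it had a low WT replicate 1 and its lowest value in FLT3-ITD replicate 037. Because it was picked for closeness to Fos on these arrays, this was largely fixed in advance. Its genotype difference was −0.12 ± 0.23 (SE; limma adjusted p = 0.919).

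Further genes of the pathway were read from lists, and 0 genes of these lists passed by genotype or by the tag. Over all tested genes the medians were 0.02 by genotype and 0.04 by the tag. Among 11 tested AP-1 relatives of 14 listed, such as BATF and MAF proteins, 5 had a negative genotype difference, with a median of 0.06, and 4 a negative tag difference, with a median of 0.02. Batf read −0.31 ± 0.13 relative to WT (SE; limma adjusted p = 0.508) and Mafk −0.46 ± 0.20 (SE; limma adjusted p = 0.521). Among 12 tested of 15 listed MAP kinases and factors of the ternary complex that drives Fos, 5 were negative, with a median of 0.02, and by the tag 4 were negative, with a median of 0.07. The ternary complex factor gene Elk3 read −0.34 ± 0.15 (SE; limma adjusted p = 0.538) and the kinase gene Map2k1 0.31 ± 0.20 (SE; limma adjusted p = 0.687). Of 3 tested of 4 listed EGR relatives and NAB corepressors, which bind EGR proteins, Nab1 read −0.25 ± 0.16 and Egr4 0.13 ± 0.13, with a list median of −0.12.

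Of 31 other immediate early genes listed, 28 were tested. Of these, 20 had a negative difference, with a median of −0.23, and 6 lower and 2 higher had an unadjusted p under 0.05, against 9.58% of all tested genes in either direction. Dusp6, a phosphatase specific for ERK, read 8.33, 8.62, 8.91 and 8.93 in WT and 6.04, 7.01, 7.71 and 7.47 in FLT3-ITD. Every FLT3-ITD value lay below every WT value, yet the difference of −1.64 ± 0.34 did not pass (SE; limma adjusted p = 0.103). Nr4a1, an immediate early nuclear receptor, read 8.63, 8.66, 8.74 and 7.92 in WT and 7.75, 7.79, 7.29 and 6.96 in FLT3-ITD, likewise without overlap (difference −1.04 ± 0.25, SE; limma adjusted p = 0.1499). Within each genotype its tagged sample was the lowest, with a tag difference of −0.70 ± 0.17 (SE; limma adjusted p = 0.437). By the tag, 16 of the 28 were negative, with a median of −0.10. At an unadjusted p under 0.05, 6 of them were lower in the tagged samples and 1 was higher, against 3.68% of all tested genes lower and 8.33% in either direction.

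Heat shock chaperones, which respond to protein stress, had 4 of 8 tested genes negative by genotype and 5 of 8 by the tag, with medians of 0.04 and −0.01. Dnajb1 read −0.22 ± 0.11 by genotype (SE; limma adjusted p = 0.604). Hspa1a, the inducible HSP70 gene, read 7.09, 7.10, 5.92 and 3.09 in WT and 7.64, 8.62, 8.58 and 5.95 in FLT3-ITD. Its tagged sample was the lowest within each genotype, and the tag difference was −2.97 ± 0.45 (SE; limma adjusted p = 0.233). Both tagged values lay below the array medians, in the range of dim probe sets, so the size of this difference is uncertain.

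Marker lists of progenitors and of other blood and stromal cells gave 0 genes past the test by the tag. The gate, Lin−, Sca-1+ and cKit+, is meant to remove mature neutrophils, monocytes, B, T and NK cells and erythroid cells. By genotype, 1 of 4 monocyte and macrophage markers rose, 5 of 8 dendritic cell markers rose and 1 fell. Further, 3 of 5 erythroid markers fell, and 1 of 5 progenitor markers rose and 1 fell. Over all tested genes 0.427% rose and 0.177% fell. The gene that fell on the dendritic cell and progenitor lists was the same, Flt3 (−1.17 ± 0.20, SE; limma adjusted p = 0.0406). Of mature neutrophil, B cell, T and NK cell, megakaryocyte and endothelial and stromal markers, 0 passed by genotype. The 6 tested neutrophil markers were nevertheless all negative by genotype, with a median of −1.59, against 46.3% of all tested genes. At an unadjusted limma p under 0.05, 3 of the 6 were lower, against 9.58% of all tested genes in either direction. The mean level of 9 neutrophil markers ran from 6.58 to 7.89 in WT and from 5.49 to 7.42 in FLT3-ITD, and in the tagged samples it was 7.70 in WT and 6.02 in FLT3-ITD. By the tag 4 of 6 tested neutrophil markers were negative, with a median of −0.15. For 7 monocyte and macrophage markers it ran from 5.67 to 6.25 in WT and from 6.83 to 7.43 in FLT3-ITD, with 6.25 and 6.83 in the tagged samples. By the tag 2 of 4 were negative. The dendritic cell markers averaged 7.09 to 7.29 in WT and 8.89 to 9.82 in FLT3-ITD, and 6 of 8 were negative by the tag, with a median of −0.39. The part of such cells in the members' levels was not tested.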

How the data were processed

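The deposited values were log2 expression values per probe set of a mouse array, made by the authors with RMA (version not stated), per the submitters' processing notes. RMA subtracts background, gives all arrays 1 distribution and combines the probes of a set. Per the labels, RNA was taken up in Trizol and amplified by NuGEN's WT-Ovation Pico system. Values ran from 1.96 to 14.6, scanner signals were not used here, and the precision is limited by the number of arrays.

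Of 45101 probe sets, 64 were controls, 34945 had 1 gene in the platform annotation of 2016, 932 had several and 9160 none. Current symbols were found by Entrez ID for 34741 in a RefSeq table of GRCm38.p6. All 10 members matched, none of them in a probe set with several genes. For each of 18193 genes the probe set with the highest mean was taken, and the 10762 that exceeded the array median on 4 arrays or more were tested.

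Fits used limma 3.58.1 in R 4.3.3: genotype over all 8 samples, the tag with genotype as covariate, their interaction, and genotype over all 19208 probe sets that passed the filter. Adjusted p-values are limma's with Benjamini-Hochberg adjustment over all features of a fit. The fits were tested on simulated data. Promoter windows are RefSeq's. Figures were drawn with matplotlib 3.10.9. The members, the lists and the tests were chosen with earlier results of these data known. Named besides the members were, per list, up to 4 genes past a test or else the 2 with the smallest genotype p, and the 5 genes closest to Fos. Alternatives covered the tag, replicate numbers, variance, array weights, normalization, filter, probe sets and single samples.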

Additional observations from a re-analysis of the deposited data

Results flagged for a closer look

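The members' probe sets, the named genes and the control differences, by genotype, made 62 groups of 4 values. In 4 of these groups a sample was set far off from the rest. Chance does so in about 1 of 20 groups taken without regard to their values. Here the members vary together, and some named genes, Setd1b among them, were chosen by their values. That rate is therefore only a rough guide. WT replicate 1 was the lowest for Junb at 6.31, with the others at 6.51 to 6.55. WT replicate 3 was the highest for the second Egr2 probe set, 1427682_a_at, at 5.05, with the others at 3.87 to 4.02, all below the array median. WT replicate 037 was the lowest for Nr4a1 at 7.92, with the others at 8.63 to 8.74. FLT3-ITD replicate 037 was the lowest for Setd1b at 8.53, with the highest of the others at 9.10.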

How the results depend on the processing

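No member passed by genotype, tag or interaction under any alternative run (19, 15 and 4 settings), with limma adjusted p from 0.239, 0.333 and 0.886 upward. Of the members' single values, 164 of 171, 132 of 135 and 35 of 36 kept their direction, as did 22 of 22 by probe set. Part of this was fixed in advance. The tag covariate, replicate blocks, variance trend, filters and omitted genotype term left the differences themselves unchanged and altered only the p-values. Without both tagged samples Fosl2 read 0.15 and Junb 0.025 by genotype. Leaving out single samples gave −0.27 to 0.30 for Fosl2 (0.03 without WT replicate 1, 0.09 without WT replicate 3, 0.30 without FLT3-ITD replicate 037), −0.29 to 0.047 for Fosb (0.047 without FLT3-ITD replicate 037) by genotype, and −0.18 to 0.10 for Junb by the tag (0.10 without FLT3-ITD replicate 037). With tagged samples set against number 1 alone, Junb read 0.079 and Atf3 0.57. As means over probe sets, Jund read 0.014 by genotype and Jun 0.084 for the interaction. The cause was not tested in these cases.

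Same-numbered samples deviated together only weakly (correlations of 0.03, 0.04 and 0.06 for 1, 2 and 3, and 0.11 for 037). WT replicates 1, 3 and 037 each correlated best with the FLT3-ITD sample of the same number. WT replicate 2 correlated best with FLT3-ITD replicate 3, at 0.05. Correlations this weak do not settle whether samples were paired. With a replicate block, 0 members passed, 2 were at an unadjusted p under 0.05, and 19 genes rose and 3 fell over all genes (31 and 4 with 037 placed with number 1), against 46 and 19. Other such counts were 26 and 5 without both tagged samples, 18 and 7 above the median on all arrays and 65 and 30 with array weights. Leaving out single samples gave 28 to 45 and 2 to 14. By probe set, falls went from 23 to 7 without the filter. By the tag, 2 genes rose without the filter and 1 above the median on all arrays. Unadjusted, 1 member passed by genotype with the tag as covariate, with array weights, as means over probe sets, and without WT replicate 3 or FLT3-ITD replicate 1, and 2 without FLT3-ITD replicate 3. By the tag 3 did as means over probe sets or without a genotype term, 1 against number 1 alone. FLT3-ITD replicate 037 was lowest in 7 members as means over probe sets.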
